A study of Homo sapiens with 18 samples.

Results

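This is a description of trimethylation of histone H3 at lysine 4 (H3K4me3) in H2087-LCC cells exposed to TGF-β1, set against the same mark in untreated H2087-LCC cells. H2087-LCC is a human lung adenocarcinoma cell line. The material comprises the 2 H3K4me3 libraries of these conditions, out of 13 libraries with a summit file and 18 samples in the series. The treated cells (TGFb) were exposed to TGF-β1 at 100 nM during 4 days according to the labels, an unusually high dose of TGF-β1 that was not verified, and the untreated cells (LCC) have no vehicle or other treatment in their labels. Both were grown in the same RPMI-based medium, whose supplements included serum, hydrocortisone, insulin, transferrin and epidermal growth factor. Used beside them are LCC H3K27ac, with 2 biological replicates, the other marks of TGFb and LCC, and the H3K4me3, H3K27ac and H3K4me1 lists of H2087-LCC-SO1 (SO1) and of H2030, which the labels also give as human lung adenocarcinoma. The members are all H3K4me3 peak summits on chromosomes 1 to 22 and X, 28850 in TGFb and 26049 in LCC, or 54899 of the 946841 summits of the series. Each condition has 1 H3K4me3 library, so no difference below has a replicate check or a p-value, and the intervals given are Wilson 95% intervals that cover counting error only. All positions are hg19 coordinates. Genes are not named, because the annotation at hand is of another build.

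H3K4me3 is laid down by the SET1 and MLL methyltransferase complexes around the start sites of genes, most strongly at CpG-rich promoters. Active promoters usually carry acetylation of lysine 27 (H3K27ac) as well, while monomethylation of lysine 4 (H3K4me1) is typical of enhancers and of the regions beside promoters. TGF-β1 signals through a pair of receptor kinases to the SMAD proteins, which enter the nucleus, bind DNA with SMAD4 and recruit histone acetyltransferases. In epithelial cells the pathway is known for growth arrest and for the epithelial-mesenchymal transition. In bulk chromatin, a weak peak in all cells and a strong peak in few cells cannot be told apart.

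Each list held a large group of strong summits and a long tail of weak ones. The score of a summit is the authors' own, read as the −log10 of a p or q value, and it grows with sequencing depth, so it ranks summits within a list only. The median score was 146.8 in TGFb and 189 in LCC. In TGFb 36.8% of the summits scored 400 or more and 18.2% scored under 10. In LCC 34.1% scored 400 or more and 15.9% under 10. The TGFb list was thus longer and held a larger share of summits at both ends of the scale. Read depth is unknown for both libraries, and its part in the list lengths was not tested.

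Strong H3K4me3 summits were nearly all found in both conditions, and the lists differed among the weak summits. Of the TGFb summits 81.6% had an LCC summit within 500 bp, and of the LCC summits 90.3% had a TGFb summit within that distance. With the TGFb list reduced to the length of the LCC list these shares were 87.4% and 87.5%. They are bound to be close there because summits pair nearly one to one. With a list shifted by 2 Mb these shares were 1.17% and 1.20%. Where a partner existed it lay close, at a median of 35 bp in both directions, and 221 summits fell on the identical base. Across the 23542 TGFb summits with a partner, the scores in the TGFb and LCC lists had a Spearman's rho of 0.96. This correlation across sites describes 2 libraries, and strong CpG-rich promoters share base composition as well as signal.

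Each list was divided into 10 classes of equal size by score, class 1 being the lowest. Class 1 of the TGFb list, scores up to 6.25, was found in LCC for 27.2% of the summits (25.7 to 28.9). Class 2 was found for 45.2%, class 3 for 72.7% and class 4, starting at a score of 22.5, for 92.5%. From class 5 on, the share lay between 95.4% and 97.6%. In the other direction, 57.6% (55.7 to 59.5) of LCC class 1 was found in TGFb, 77.8% of class 2, and between 93.4% and 97.6% of each class above. SO1 and H2030, compared with the same LCC list, shared less of their middle classes. Class 4 was found in LCC for 81.5% of the SO1 and 47.2% of the H2030 summits. In class 10, 96.8% of TGFb, 95.4% of SO1 and 94.0% of H2030 summits were found in LCC. The scores of summits shared with LCC had a rho of 0.92 in SO1 (22123 sites) and 0.79 in H2030 (16339 sites).

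**Figure D1:**
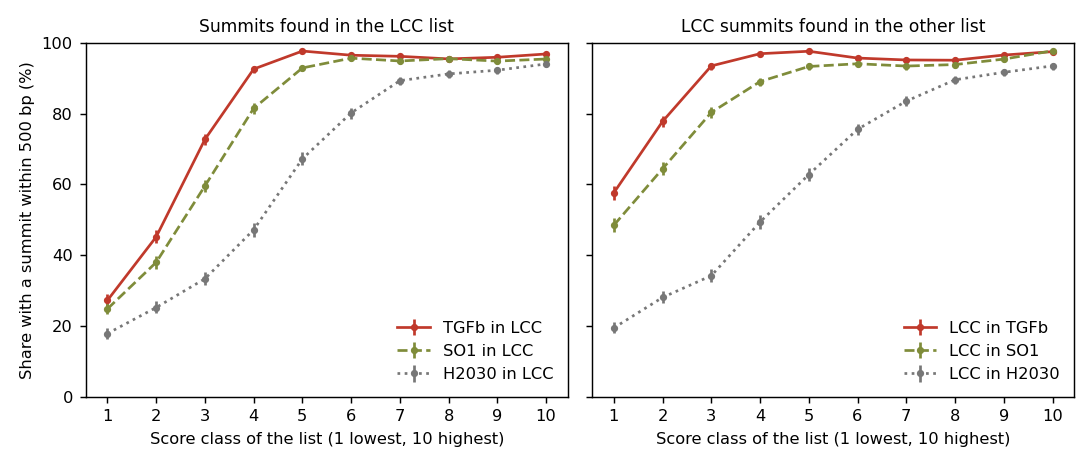
Share of H3K4me3 summits with a summit of the other list within 500 bp (%), by score class (1 lowest, 10 highest). Left, TGFb, SO1 and H2030 summits found in LCC; right, LCC summits found in TGFb, SO1 and H2030; points are single libraries and bars are Wilson 95% intervals. The TGFb curve starts at 27.2% on the left and at 57.6% on the right, and lies between 95.4% and 97.6% from class 5 on at the left.

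A strong summit of one condition seldom lacked a strong neighbour in the other. Summits of both lists were merged within 1000 bp into 29972 elements, of which 23937 carried H3K4me3 in both conditions. An element was called TGFb-only when TGFb marked it within 1000 bp at or above the median of its marked elements (164) and LCC did not. This held for 153 elements, or 0.51% of those tested. LCC-only elements by the reverse rule, with a median of 202, numbered 144, or 0.48%. With a window of 2500 bp in place of 1000 bp the counts were 30 and 27. Of the 153 TGFb-only elements, 115 had an LCC summit within 2 kb and 149 within 10 kb, and 137 of these nearest LCC summits lay at or above the median of the LCC list. Of the 144 LCC-only elements, 103 had a TGFb summit within 2 kb, all had one within 10 kb, and for 143 it lay at or above the median of the TGFb list. The median distance to the other condition's summit was 1414 bp for TGFb-only and 1422.5 bp for LCC-only elements. The files hold no peak widths, so a wide peak whose highest point sits elsewhere and a mark that moved cannot be told apart.

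The highest TGFb-only element, chr17:60555598, scored 655 in TGFb, and an LCC summit of score 557 lay 1237 bp away. At chr6:41514852 TGFb scored 648, with an LCC summit of 519 at 1279 bp. At chr17:61850714 it scored 645, with an LCC summit of 479 at 1127 bp. Both conditions therefore had a strong summit at each of these places, just over 1 kb apart. The next elements, chr9:96213597 (643) and chr16:3929858 (639), had LCC summits of 467 and 464 within 1276 bp. Among LCC-only elements the nearest TGFb summit was also high in its own list. At chr17:2241114 TGFb scored 581 at 1757 bp from the LCC summit of 633. At chr1:224622761 TGFb scored 597 at 1004 bp from the LCC summit of 611. At chr5:180674220 TGFb scored 579 at 3914 bp from an LCC summit of 583. The remaining LCC-only elements of the first 5, chr11:95523906 and chr7:26240147, had TGFb summits of 579 and 604 within 1449 bp of LCC summits of 583 and 570.

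Summits with no counterpart at all were therefore counted at a wider distance. A summit was called isolated when the other condition had no H3K4me3 summit within 10 kb. There were 2678 isolated TGFb summits, or 9.28% of the list, and 845 isolated LCC summits, or 3.24%. They were mostly weak, with a median score of 6.88 in TGFb and 6.23 in LCC, against 292 for TGFb and 237 for LCC summits within 1 kb of the other list. The TGFb list was then reduced to its 26049 highest summits, the length of the LCC list, which was not cut. That left 1569 TGFb and 1350 LCC summits isolated, or 6.02% and 5.18%. The lowest scores were then 6.08 in TGFb and 1.30 in LCC. Equal lengths draw these counts together by construction, so neither pair of counts measures a gain or a loss. Of the TGFb summits scoring under 10, 37.2% were isolated, against 17.2% of such LCC summits. At scores from 20 to 50 the shares were 4.35% in TGFb and 0.513% in LCC. Of 10621 TGFb summits at 400 or more only 1 was isolated, and of 8884 such LCC summits 0. At the boundary of the call, a TGFb summit at chr2:86105872 (score 5.37) had an LCC summit 9996 bp away, and one at chr9:134543668 (25.5) had its nearest one at 10007 bp. For LCC the neighbouring cases were chr11:64655680 (7.59), with a TGFb summit at 9868 bp, and chr2:169193363 (8.39), with one at 10103 bp.

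Isolated summits of higher score were more numerous in TGFb, on scores that are not on a common scale between the lists. A score of at least 50 was reached by 21 isolated TGFb and 0 isolated LCC summits, and these counts were also 21 and 0 in the lists of equal length. A score of at least 20 was reached by 160 TGFb and 14 LCC summits, and in lists of equal length by 160 and 39. The TGFb counts could not change at equal length. The lowest TGFb score kept was 6.08, and the LCC list searched was not cut. Only the LCC counts could move there. Only 5 isolated TGFb summits, 0.0173% of the list, lay at or above the list median, and 0 of the LCC summits did. With a distance of 25 kb 3 TGFb summits did so, in lists of equal length 1, and with 5 kb 7 TGFb and 3 LCC summits. The SO1 comparison, which uses the same LCC list, gave 174 isolated summits of at least 50 in SO1 and 111 in LCC, of which 25 and 10 lay at or above their list medians. In the H2030 comparison the counts at the list median were 314 in H2030 and 527 in LCC. TGFb thus had fewer strong isolated summits against LCC than either other condition.

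The 5 strong isolated TGFb summits stood at places where LCC had H3K4me1, weak at some, and H3K27ac that was weak or not found. The first, chr5:136834834, scored 423 in TGFb, and LCC had its closest H3K4me3 summit at 254690 bp. The second, chr19:55881312, scored 218, with the nearest LCC summit at 15834 bp. The third, chr1:172225286, scored 208, with LCC at 66300 bp. The remaining pair were chr9:116356655, with a score of 172 and LCC at 13230 bp, and chr4:118246929, with 156 and LCC at 145491 bp. All 5 carried TGFb H3K27ac within 1 kb, with scores from 45.4 to 398. So did 84.1% of the TGFb summits of at least 50 that lay within 1 kb of an LCC one. LCC replicate 1 had H3K27ac at 0 of them, and LCC replicate 2 at 3 of them, with scores from 4.98 to 12.9, all under the median of 13.5 in that list. LCC H3K4me1 lay at all 5, with scores from 4.69 to 35.8, and TGFb H3K4me1 within 1 kb at 3. At the chr5 and chr4 summits the LCC H3K4me1 scores, 8.89 and 4.69, also lay under the median of their list, 11.6. H2030 carried H3K4me3 at all 5 (69.6 to 393), and SO1 at 2, with 101 at the chr19 and 199 at the chr9 summit. None of the 5 was therefore marked in TGFb alone among the 4 conditions.

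The region around the strongest of them also differed in H3K27ac. Within 60 kb of chr5:136834834, TGFb had 9 H3K27ac summits, LCC replicate 1 had 1 and LCC replicate 2 had 3. The highest TGFb H3K27ac summit, 355, stood 29019 bp below the H3K4me3 summit in coordinate, at chr5:136805815. Others scored 140 at chr5:136827440 and 84.7 at chr5:136822282, and a summit of 56.0 lay 20 bp from the H3K4me3 summit. The LCC H3K27ac summits scored 7.71 in replicate 1 and 4.59 to 11.6 in replicate 2, and the nearest lay 7363 bp from the H3K4me3 summit. For H3K4me1 the region held 10 TGFb summits, up to 68.3, and 7 LCC summits, up to 40.5. An LCC H3K4me1 summit of 8.89 stood 41 bp from the place of the TGFb H3K4me3 summit, while the nearest TGFb H3K4me1 summit (22.7) lay 1274 bp from it. SO1 had no H3K4me3 in the region and 1 H3K27ac summit, of 3.83. H2030 had H3K4me3 of 393 at a distance of 50 bp, with H3K27ac of only 4.41 beside it and 32.6 near the place of the highest TGFb summit.

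**Figure D2:**
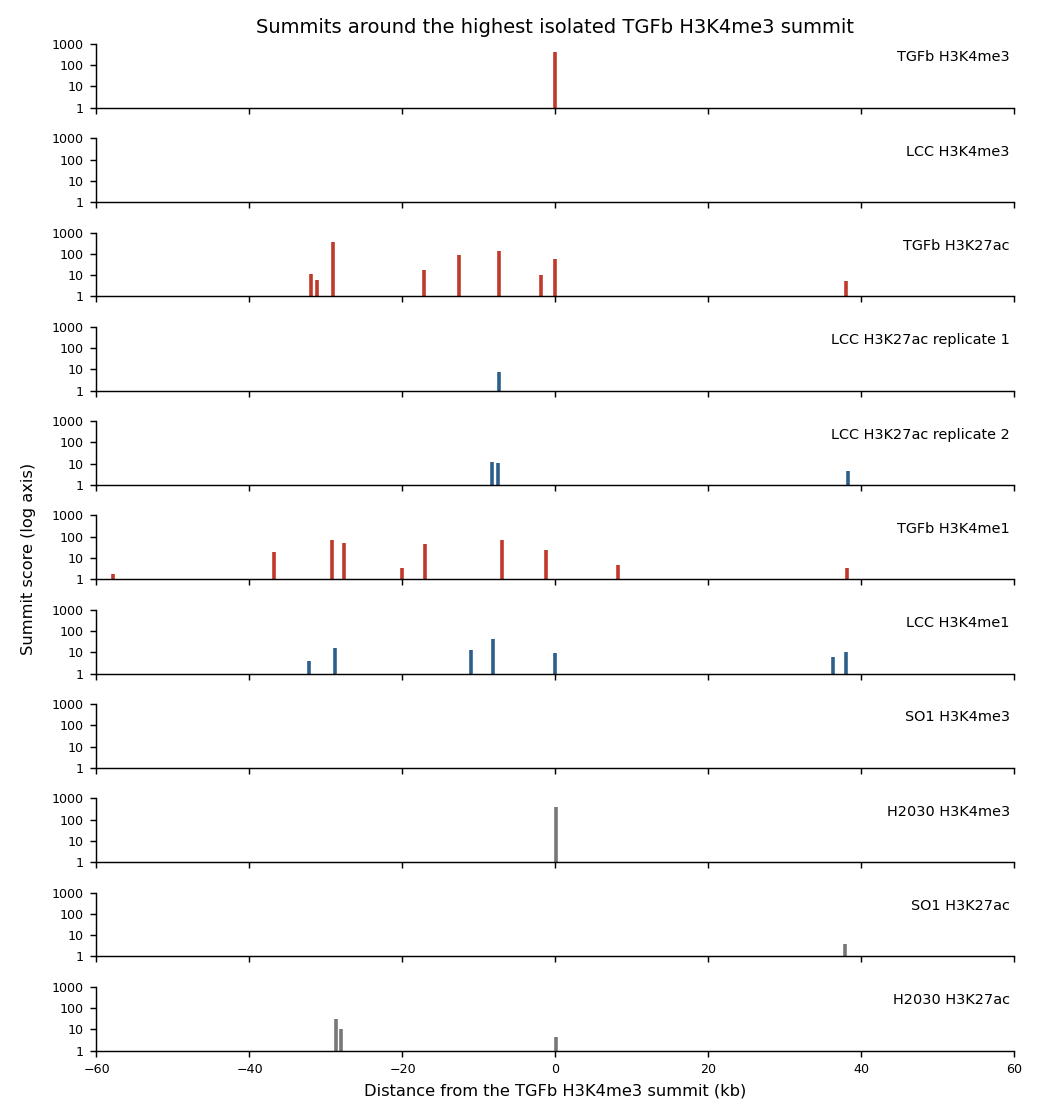
Summits within 60 kb of the strongest isolated TGFb H3K4me3 summit, at position 0. The x axis is the distance in kb and the y axis the score of each summit on a log axis. Each library drawn has 1 panel (TGFb red, LCC blue, SO1 and H2030 grey), and the H3K4me1 libraries of SO1 and H2030 are not drawn. TGFb has 1 H3K4me3 and 9 H3K27ac summits, where LCC has no H3K4me3 and 1 and 3 H3K27ac summits in its replicates; H2030 has an H3K4me3 summit of 393.

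The next 5 isolated TGFb summits scored between 101 and 124, below the list median. At chr2:161084937 TGFb H3K4me3 scored 113 and H3K27ac 581, where LCC had H3K27ac of 21.0 in replicate 1 and its nearest replicate 2 summit at 3859 bp. SO1 had H3K4me3 of 26.4 and H3K27ac of 169 there. At chr3:48632622 TGFb H3K4me3 scored 106 and H3K27ac 407, with LCC H3K27ac of 8.08 in replicate 2 and the nearest replicate 1 summit at 14329 bp. Both places thus had H3K27ac high in the TGFb list and found in only 1 of the LCC replicates. At chr7:131338781 (114) TGFb H3K27ac scored 153 and the nearest LCC H3K27ac summits lay 33478 bp and 97013 bp away. At chr20:58411729 (101) TGFb H3K27ac scored 31.3, with the nearest LCC H3K27ac summit 97300 bp away. At both of these the H3K4me3 summit appeared in neither SO1 nor H2030, and LCC had H3K4me1 of 11.7 and 12.4. The sixth in rank, chr1:25274597 (124), had no summit of another library within 1 kb. Its H3K27ac and H3K4me1 neighbours lay between 1530 and 1762 bp away in all 4 conditions. Over the 10 highest, 9 had TGFb H3K27ac, 1 had LCC H3K27ac of replicate 1, 4 of replicate 2 and 8 LCC H3K4me1. At TGFb summits of at least 50 within 1 kb of an LCC one these shares were 84.1%, 77.7%, 82.6% and 72.7%. Of those 17256 shared summits 10513 scored 400 or more, against 1 of the 10 highest isolated ones, so the sets are not matched by score.

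The isolated LCC summits all lay below the median of their own list, 189. The highest scored 47.3, at chr10:10836486, with the nearest TGFb H3K4me3 summit 98002 bp away. LCC H3K27ac scored 30.3 and 105 there in replicates 1 and 2, SO1 28.1, and the nearest TGFb H3K27ac summit lay 1909 bp away. At chr16:28550169 (43.5) neither condition had H3K27ac within 6 kb. At chr15:75356654 (42.0) LCC H3K27ac scored 14.9 and 15.0, and the nearest TGFb H3K27ac summit lay 2623 bp away. At chr1:151446013 (29.7) SO1 H3K4me3 reached 226, with no H3K27ac of any condition nearer than 14242 bp. The other 6 scored between 22.6 and 29.7, at chr6:106787573, chr6:32407727, chr14:29082665, chr6:149570553, chr1:225934537 and chr11:8350787. At chr1:225934537 TGFb H3K27ac scored 161, above 18.0 and 38.0 in the LCC replicates, although the H3K4me3 summit (23.8) was in the LCC and not in the TGFb list. Over the 10 highest, 4 had TGFb H3K27ac, 6 had LCC H3K27ac of replicate 1, 5 of replicate 2 and 7 LCC H3K4me1. At LCC summits scoring from 20 to 50 within 1 kb of a TGFb one these shares were 56.9%, 46.4%, 52.7% and 74.5%. The 10 highest isolated summits of TGFb and of LCC lie at unlike scores.

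**Figure D3:**
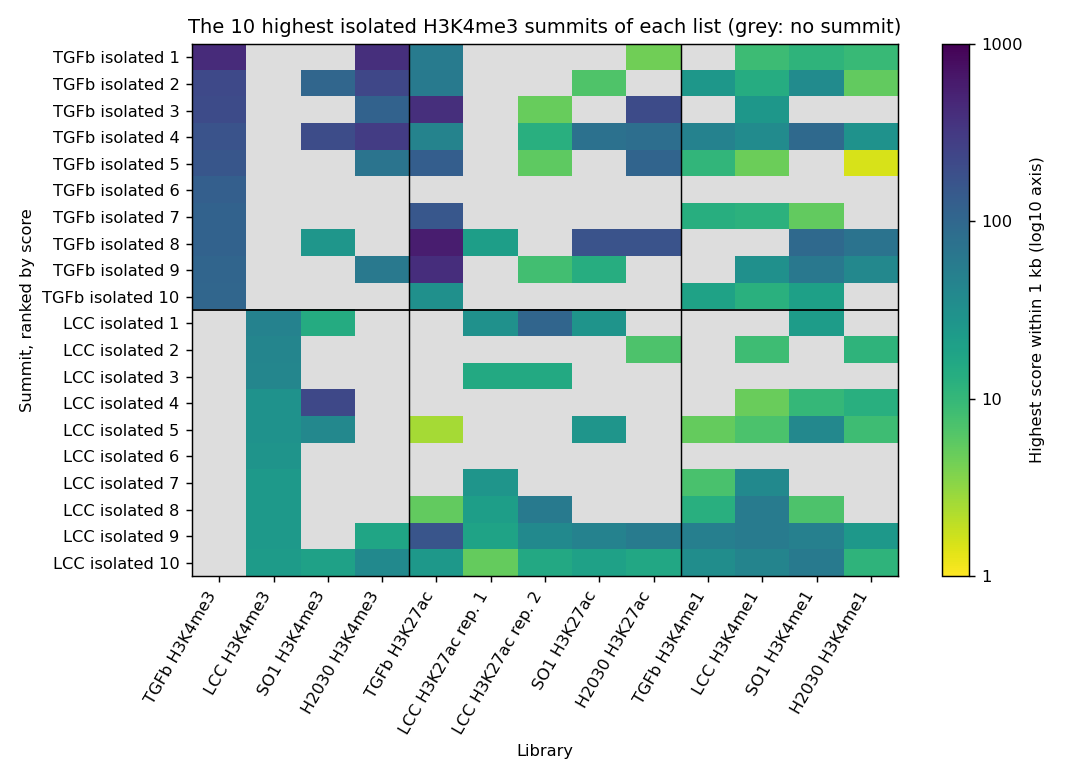
Highest score within 1 kb (colour, log10 axis) in each of the 13 libraries (columns) at the 10 highest isolated H3K4me3 summits of TGFb (upper rows) and LCC (lower rows), ranked by score; grey means no summit. Scores rank summits within a library. Of the TGFb summits, scoring 101 to 423, 9 of 10 have TGFb H3K27ac, and of the LCC summits, scoring 22.6 to 47.3, 4 of 10 do. Among TGFb summits within 1 kb of an LCC one, 57.9% have it at scores from 20 to 50 and 84.1% at 50 or more.

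Over all isolated summits, H3K27ac was somewhat more frequent in the condition that carried the H3K4me3. The H3K27ac libraries did not enter the choice of these summits. To set lists of different length aside, the TGFb and LCC replicate 2 H3K27ac lists were reduced to their 50628 highest summits, the length of the replicate 1 list. This step was added after the data were seen. TGFb H3K27ac lay within 1 kb of 61.0% (59.1 to 62.8) of the isolated TGFb summits, against 53.0% (51.1 to 54.8) for LCC replicate 1 and 54.6% (52.7 to 56.5) for replicate 2. At the isolated LCC summits the order was the opposite, 40.2% (37.0 to 43.6) for TGFb, 47.8% (44.5 to 51.2) for replicate 1 and 45.8% (42.5 to 49.2) for replicate 2. At TGFb summits with an LCC summit within 1 kb, most of them high-scoring, the shares were 72.9% for TGFb, 70.1% for replicate 1 and 72.2% for replicate 2. TGFb lay outside the range of the LCC replicates at both kinds of isolated summit, by more than the replicates differed from each other, though at isolated LCC summits its interval overlapped that of replicate 2. With the lists as deposited the shares at isolated TGFb summits were 64.3% for TGFb, 53.0% for replicate 1 and 58.1% for replicate 2. At isolated LCC summits they were 45.9% for TGFb, 47.8% for replicate 1 and 48.9% for replicate 2, a smaller distance than at equal length. Among TGFb summits scoring under 10, with H3K27ac lists as deposited, TGFb H3K27ac lay at 62.6% (60.4 to 64.7) of the isolated and 56.3% (54.2 to 58.4) of those within 1 kb of an LCC summit. For LCC replicate 1 these shares were 52.8% and 55.3%, and for replicate 2 57.7% and 56.6%. Among LCC summits scoring under 10, TGFb H3K27ac lay at 46.1% of the isolated and 58.2% of those within 1 kb of a TGFb summit, LCC replicate 1 at 47.5% and 55.2%, and replicate 2 at 48.7% and 57.5%. Under a score of 10, isolated TGFb summits thus exceeded shared ones in TGFb H3K27ac, while isolated LCC summits lay below shared ones in all 3 libraries. Between scores of 10 and 20, TGFb H3K27ac lay at 67.3% of isolated and 55.1% of shared TGFb summits. Replicate 1 had 52.9% and 50.5% of those TGFb summits, and replicate 2 59.15% and 54.45%, with overlapping intervals in both. For LCC summits in that band the TGFb H3K27ac shares were 43.6% and 54.6%. Replicate 1 had 48.7% and 49.0% of those LCC summits, and replicate 2 48.7% and 51.4%. At scores from 20 to 50, the 139 isolated TGFb summits lay above the shared ones in all 3 libraries. The shares were 71.9% against 57.9% for TGFb, 57.55% against 49.65% for replicate 1 and 61.15% against 53.45% for replicate 2. The intervals overlapped for the LCC replicates only. Only 14 LCC summits scoring from 20 to 50 were isolated, and their shares lay above those of shared ones in all 3 libraries.

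**Figure D4:**
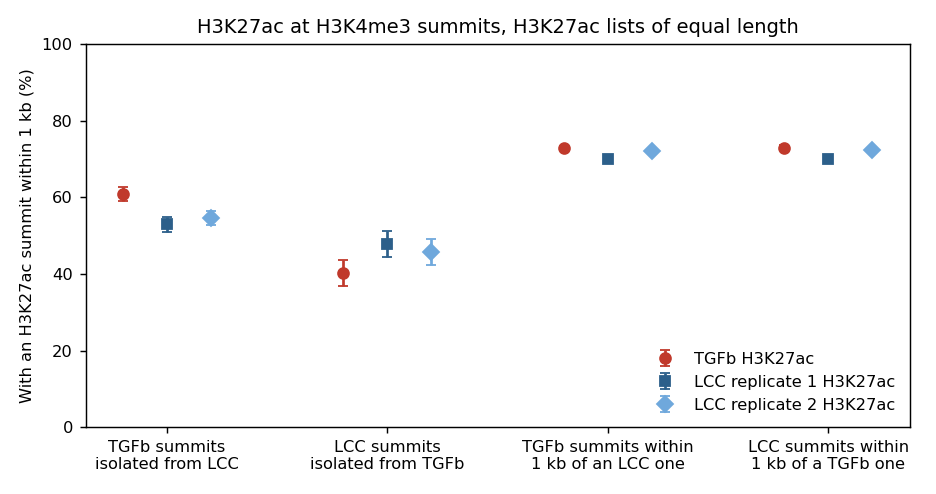
Share of H3K4me3 summits with an H3K27ac summit within 1 kb (%), for TGFb and both LCC H3K27ac replicates, with H3K27ac lists of equal length. The 4 groups are isolated TGFb, isolated LCC, and the TGFb and LCC summits within 1 kb of the other list; points are single libraries and bars Wilson 95% intervals. Of the 3 H3K27ac libraries, TGFb has the highest share at isolated TGFb summits (61.0%) and the lowest at isolated LCC summits (40.2%).

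H3K27ac in TGFb alone was the case at few isolated TGFb summits. With lists as deposited, 1243 of the 2678, or 46.4%, had H3K27ac in TGFb and in both LCC replicates. Another 818 (30.5%) had none in any of the 3 libraries, and 192 (7.17%, 6.25 to 8.21) had it in TGFb and in neither LCC replicate. At TGFb summits within 1 kb of an LCC one that last share was 4.13% (3.89 to 4.39). Scores differ between these sets, and among summits scoring under 10 the shares were 6.45% (5.44 to 7.62) of the isolated and 5.11% (4.24 to 6.14) of the shared, with overlapping intervals. Of the isolated LCC summits, 54 of 845 (6.39%, 4.93 to 8.25) had H3K27ac in both LCC replicates and not in TGFb, against 2.46% (2.27 to 2.66) of LCC summits within 1 kb of a TGFb one. Under a score of 10 these shares were 6.02% (4.50 to 8.01) and 4.56% (3.85 to 5.39), again with overlapping intervals. Between scores of 10 and 20 they were 7.69% (4.10 to 14.0, 9 of 117) and 3.07% (2.45 to 3.85), where the intervals did not overlap. In that band H3K27ac in TGFb and neither LCC replicate lay at 7.99% (6.03 to 10.5) of isolated TGFb summits. At shared TGFb summits it was 5.42% (4.52 to 6.48), with overlapping intervals. Among the 21 isolated TGFb summits of at least 50, 19 had TGFb H3K27ac, 8 had it in LCC replicate 1, 10 in replicate 2, and 7 in TGFb alone of the 3 libraries. Of TGFb summits of at least 50 within 1 kb of an LCC one, 84.1% had TGFb H3K27ac, 77.7% replicate 1 and 82.6% replicate 2. The first share lies within the interval at the isolated summits, 71.1 to 97.3. The other 2 lie above theirs, 20.8 to 59.1 and 28.3 to 67.6. These sets are not matched by score. Only 1 of the 21 isolated summits scored 400 or more, against 10513 of the 17256 shared ones. At shared TGFb summits scoring from 20 to 50, replicate 1 had 49.65% and replicate 2 53.45%, both within those intervals.

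H3K4me1 was present in LCC too at most places with isolated TGFb H3K4me3. It lay within 1 kb of 72.7% (71.0 to 74.4) of them in TGFb and 74.0% (72.3 to 75.6) in LCC. The values at TGFb summits within 1 kb of an LCC one were 71.7% in TGFb and 73.0% in LCC. At isolated LCC summits the shares were 67.7% (64.5 to 70.8) in TGFb and 72.3% (69.2 to 75.2) in LCC, with overlapping intervals. H3K4me1 was present in both conditions at 65.5% of isolated TGFb and 59.9% of isolated LCC summits.

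Many isolated summits carried H3K4me3 in another condition. SO1 had a summit within 1 kb of 46.7% (44.8 to 48.6) of the isolated TGFb and 38.8% (35.6 to 42.1) of the isolated LCC summits. For H2030 the shares were 22.07% and 22.01%. Among summits scoring under 10, SO1 had 41.9% (39.7 to 44.1) of the isolated TGFb and 37.1% (33.6 to 40.7) of the isolated LCC summits. Between scores of 10 and 20 it had 58.8% and 47.9%. Neither SO1 nor H2030 had H3K4me3 at 1152 isolated TGFb summits (43.0%) and 426 isolated LCC summits (50.4%). At summits shared by TGFb and LCC within 1 kb this held for 5.63% of the TGFb and 5.54% of the LCC summits, most of them high-scoring. Among TGFb summits scoring under 10 it held for 47.8% (45.6 to 50.0) of the isolated and 28.5% (26.6 to 30.4) of the shared. Among LCC summits scoring under 10 it held for 51.7% (48.0 to 55.3) of the isolated and 23.1% (21.5 to 24.6) of the shared. At that score SO1 had H3K4me3 at 63.9% of the shared TGFb and 69.2% of the shared LCC summits. Since isolated summits were chosen for their absence from one list, peaks missed in that list and peaks absent from the cells cannot be told apart.

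Beyond presence and absence, few sites stood high in one list and low in the other. Sites were counted that lay at or above the median of one list and whose counterparts within 10 kb, with at least 1 within 1 kb, all lay in the lowest 25% of the other, a rule added after the data were seen. There were 5 such sites high in TGFb and low in LCC, 0.0347% of the summits at or above the median, and 0 high in LCC and low in TGFb. For SO1 against LCC there were 36 and 6, and for H2030 against LCC 103 and 97. At chr14:101943116 H3K4me3 scored 157 in TGFb and 8.59 in LCC, and the highest H3K27ac within 1 kb was 301 in TGFb, against 15.6 and 8.28 in the LCC replicates. At chr8:125284170 the H3K4me3 scores were 147 in TGFb and 4.90 in LCC, with H3K27ac of 329 in TGFb, against 58.7 and 55.5 in LCC. These 2 sites thus stood higher in both marks in TGFb, on scores that depend on depth. At chr7:131582643, chr1:11751458 and chr12:1640409 H3K4me3 scored between 151.5 and 191 in TGFb, against 8.71 to 9.82 in LCC. None of these 3 had TGFb H3K27ac within 1 kb, and at chr7:131582643 LCC replicate 2 had an H3K27ac summit of 6.46. H2030 had H3K4me3 within 1 kb at all 5 sites except chr7:131582643, with scores from 30.9 to 229. SO1 had it only at chr14:101943116 (10.4) and chr8:125284170 (17.3).

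Multi-summit H3K4me3 domains, summits joined within 2 kb, were slightly more frequent in TGFb with the lists as deposited. Of 27656 TGFb domains 1070 held 2 or more summits (3.87%, 3.65 to 4.10), against 773 of 25204 LCC domains (3.07%, 2.86 to 3.29), 2.99% in SO1 and 2.71% in H2030. With the TGFb list cut to the length of the LCC list the direction turned, with 2.38% in TGFb and 3.07% in LCC. Only low-scoring TGFb summits were removed in that cut, which by itself can lower the TGFb share. Neither pair of shares thus measures a difference between the conditions. The median span was 1157.5 bp in TGFb and 1212 bp in LCC. Of the 1070 TGFb domains LCC had 2 or more summits at 353, a single one at 534 and none at 183. Of the 773 LCC domains TGFb had 2 or more at 355, a single one at 379 and none at 39. The domain with most TGFb summits, chr14:62035339-62040594, held 5 with scores from 7.44 to 29.7, where LCC had 3 summits, the highest at 100. A second domain nearby, chr14:62026754-62030129, held 4 in TGFb and 3 in LCC. Among the 14 TGFb domains of 4 or more summits, the next by span were chr9:21548601-21553144, with no LCC summit, chrX:45658973-45662775, with 2, and chr6:34210047-34213784, with 1. In LCC a domain of 5 weak summits stood at chr16:46403665-46408393, scores 4.59 to 15.5, with no TGFb, SO1 or H2030 H3K4me3 there. LCC had 2 and 3 H3K27ac summits in it in replicates 1 and 2, and TGFb had none, while no library had H3K4me1. Regions where reads map poorly were not filtered out here, and whether this place is one of them was not tested. The other LCC domains with most summits, chr9:140118307-140123179, chr16:89387634-89392405, chr18:3012865-3016717 and chr1:15742768-15745793, held 4 each and had between 2 and 5 TGFb summits.

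Isolated TGFb summits were also found in groups. Joined within 20 kb, a distance chosen after the data were seen, 421 of the 2678 (15.7%) had another isolated TGFb summit nearby, against 67 of 845 (7.93%) in LCC, where isolated summits are fewer. The largest group, chr6:158461189-158490622, held 5 TGFb summits with scores from 4.80 to 26.7 over 29433 bp and no LCC H3K4me3. H3K27ac was present there in both conditions, with 8 TGFb summits up to 447, against 5 up to 127 in LCC replicate 1 and 6 up to 226 in replicate 2. SO1 had 5 H3K4me3 summits in it, up to 131, and H2030 had 1. At chr22:40887926-40897226, with 4 weak TGFb H3K4me3 summits, the highest H3K27ac score was 366 in TGFb, against 8.52 and 21.1 in the LCC replicates, 27.9 in SO1 and 291 in H2030. At chr13:95752316-95781040, also with 4, it was 457 in TGFb, against 183 and 212 in LCC. Further groups of 4 lay at chr1:24701370-24718113, chr8:66934355-66954437 and chr10:95219191-95228153, and all 3 held SO1 H3K4me3.

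At the elements with H3K4me3 in both conditions, H3K27ac was more frequent, and less often found in 1 condition only, where H3K4me3 was strong. Such high shares leave little room for differences. Of the 12670 elements at or above the median of both H3K4me3 lists, 92.7% had H3K27ac in TGFb, against 89.0% in LCC replicate 1 and 92.6% in replicate 2. H3K27ac lay at 211 of them (1.67%) in TGFb and neither LCC replicate, and at 212 (1.67%) in both LCC replicates and not TGFb. Of the 9946 elements under both medians, the shares were 57.8% in TGFb, 50.1% in replicate 1 and 54.8% in replicate 2, with 628 elements (6.31%) in TGFb and neither replicate and 319 (3.21%) in both replicates and not TGFb. The TGFb H3K27ac list is the longest of the 3, and the part of its length in these shares was not tested. H3K4me1 lay at 71.6% of the strong elements in TGFb and 72.5% in LCC, and at 75.2% and 77.2% of the elements under both medians.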

How the data were processed

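Chromatin of crosslinked cells was immunoprecipitated for H3K4me3 with a Millipore Sigma antibody and sequenced, per the labels' protocols. The submitters' processing notes name deepTools, SAMtools and Bowtie2 as tools, with hg19 as genome build. No source used here names the peak caller. The authors deposited 1 list of 1 bp summits per library, each with a score read as the −log10 of a p or q value. Which of these it is was not settled. Read depth is not known.

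Only chromosomes 1 to 22 and X entered, which left out 39 TGFb and 40 LCC H3K4me3 summits. Distances were computed in Python 3.11.15 with numpy 2.4.6, pandas 2.3.3 and scipy 1.17.1. Distances, elements, isolation, domains and groups are defined in the text. The distance code was checked on simulated lists. Alternatives were other distances, windows and joining distances, a score minimum of 10, lists of equal length, no strength condition, elements of all 4 conditions and leaving out each LCC H3K27ac replicate. The members, rules and lists were chosen with earlier results of these data known. Sites were named by rank: isolated summits at or above the list median, the 10 highest isolated summits per list, the 5 highest elements per direction, the 5 highest summits per list and the 5 domains with most summits. Of the added rules, all sites high in TGFb and low in LCC and all groups of 4 or more isolated summits were named. Comparisons within score bands were also added after the data were seen. The reference tables at hand are GRCh38, so no coordinates were converted, no gene lists were run and no sequences are printed.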

Additional observations from a re-analysis of the deposited data

How the results depend on the processing

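Of 56 alternative values 18 stayed within the interval or within 1.5 times the main count, and none of the values has a test. The LCC share of multi-summit domains in lists of equal length (3.07%) is among the 18. It could not change, because the LCC list was not cut. The share of TGFb summits found in LCC (81.6%) was 77.6% at 250 bp, 84.5% at 1000 bp, 86.3% with scores of at least 10 and 87.4% in lists of equal length. The share of LCC summits found in TGFb (90.3%) was 85.9%, 93.2%, 92.9% and 87.5% under the same settings, and equal lengths make the 2 directions nearly equal by construction. A 2500 bp window left 30 TGFb-only and 27 LCC-only elements, and without the strength condition there were 4303 and 1732. With scores of at least 10 in the list searched 723 TGFb and 131 LCC summits were isolated, and in lists of equal length 1569 and 1350. At 25 kb 544 LCC summits were isolated. Isolated summits at or above the list median numbered 3 in TGFb at 25 kb and 1 in lists of equal length, where the TGFb median is higher, and 3 in LCC at 5 kb. With a 2500 bp window, isolated TGFb summits had TGFb H3K27ac in 68.6%, LCC H3K27ac of either replicate in 65.0%, TGFb H3K4me1 in 81.6% and LCC H3K4me1 in 81.3%. Isolated LCC summits had TGFb H3K27ac in 49.7%, TGFb H3K4me1 in 74.8% and LCC H3K4me1 in 80.2%. With H3K27ac lists of equal length, a setting added after the data were seen, TGFb H3K27ac lay at 61.0% of the isolated TGFb and 40.2% of the isolated LCC summits. Leaving out an LCC H3K27ac replicate lowered the share with LCC H3K27ac of either replicate from 62.3% to between 53.0% and 58.1% at isolated TGFb summits, and from 54.8% to between 47.8% and 48.9% at isolated LCC summits. Domains with 2 or more summits made up 1.88% in TGFb and 1.26% in LCC when joined at 1000 bp, and 10.7% and 9.33% at 5000 bp. At equal length TGFb had 2.38%, an added setting. Where not stated otherwise, the cause was not tested. No paired analysis was possible because each H3K4me3 condition has 1 library. The gene lists were not run. Read depth is unknown, and its part in these values was not tested.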

Other observations

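Isolated summits were spread over all chromosomes studied. Their share of the TGFb list was lowest on chromosome 19 (52 of 1588, 3.27%) and highest on chromosome 13 (90 of 649, 13.9%). In the LCC list it was also lowest on chromosome 19 (19 of 1536, 1.24%) and highest on chromosome 10 (54 of 1125, 4.80%). The share was higher in TGFb than in LCC on each of the 23 chromosomes with the lists as deposited, and on 17 of 23 with lists of equal length, a count added after the data were seen.

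The 5 highest H3K4me3 summits of each list were strong in all 4 conditions. Those of TGFb were chr6:32143705, chr14:102829554, chr17:78234929, chr17:79670645 and chr17:39845361, with scores from 726 to 731 in TGFb and from 503 to 618 in LCC. Those of LCC were chr17:38219422, chr3:50126646, chr12:19593047, chr12:133264518 and chr9:140150016, with scores from 563 to 697 in TGFb and from 665 to 686 in LCC. Of these 10 summits only chr6:32143705 had no H3K27ac within 1 kb in any library, its nearest H3K27ac summits lying between 1472 and 1651 bp away.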
